A study of Mus musculus with 24 samples.

Results

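The Frizzled family consists of the 10 mouse genes Fzd1 to Fzd10, and its members were taken by gene symbol from the table of all genes measured in the dissected embryonic archicortex (ARK). All 10 were found among 51912 genes, and all 10 passed the filter on low values that 16454 genes passed. RNA was sequenced in 24 libraries of 6 groups, each with 4 libraries, from mouse embryos of mixed C57BL/6J;MF1 strain. With E for embryonic day, at E13.5 the Sox9fl/fl;Sox1Cre mutants (A1 to A4) stood against Sox9+/+;Sox1Cre controls (A5 to A8), and Sox9fl/fl;NestinCre mutants (A17 to A20) against Sox9+/+;NestinCre controls (A21 to A24). At E12.5, Sox9fl/fl;Sox1Cre mutants (A9 to A12) stood against Sox9+/+;Sox1Cre controls (A13 to A16). Every embryo, controls included, was recorded as carrying a Cre allele, and the sources describe Sox1Cre as acting in the whole ARK and NestinCre as acting later and leaving most of the cortical hem (CH) undeleted. A library held 16163560 to 49445219 reads on genes (median 23016925). The values below are normalized counts, the estimated reads of a gene divided by 1 size factor per library, and no source used here says whether the 4 libraries of a group came from separate litters, so p-values measure only the spread between these libraries.

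Frizzled proteins are receptors that cross the cell membrane and bind secreted Wnt ligands through a cysteine-rich domain outside the cell. With the co-receptors Lrp5 and Lrp6 they recruit Dishevelled, which frees beta-catenin from its destruction complex so that it acts with TCF and LEF factors on target genes, and with Celsr and Vangl proteins some of them set planar cell polarity instead. In the embryonic forebrain the CH is a rich source of Wnt and R-spondin ligands next to the hippocampal field, and R-spondins raise the amount of Frizzled at the surface by holding back the ubiquitin ligases Rnf43 and Znrf3.

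The labels were first checked with the targeted gene. Sox9, the SoxE transcription factor that was deleted, had 5218, 5911, 5450 and 5731 normalized counts in the Sox1Cre controls at E13.5 and 3563, 2828, 3384 and 3677 in their mutants. At E12.5 it had 4391, 5265, 4237 and 4194 in controls and 2785, 1733, 2593 and 1928 in mutants. The NestinCre controls had 5636, 4979, 4586 and 5406 and their mutants 3089, 2997, 3083 and 3369. In all 3 comparisons the mutants lay below every control, with log2 fold changes of -0.74, -1.02 and -0.71 and limma adjusted p of 0.0021, 6.28e-05 and 0.0297. Deletion was therefore visible in every mutant library, and the means of the mutants were 0.603, 0.5 and 0.608 times those of the controls. The paper reports that Cre removes only part of Sox9 and that the rest is still transcribed in mutants. These ratios, taken over the whole gene, therefore do not give the share of Sox9 that was deleted.

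Markers of the ARK were present throughout. Of the transcription factors of the embryonic pallium, Lhx2 had 6623 to 20568 normalized counts per library, with its lowest value in A12, a Sox1Cre mutant at E12.5, and Emx2 had 4066 to 6447. Of the 7 CH markers listed, Gdf7 fell under the filter, with a mean of 3.85 over the 24 libraries. Cells of neighboring tissue were in the dissections too. Choroid plexus markers, led by Ttr, blood markers, led by Hbb-y, and collagens of the meninges were among the abundant lists, while ventral telencephalic markers stayed below 100 in 23 libraries and reached 657.9 in A18, a NestinCre mutant.

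Some libraries stood apart. A1, a Sox1Cre mutant at E13.5, had 5266 normalized counts of Ttr against 55499, 70416 and 52673 in the other 3 libraries of its group, and the choroid plexus list summed to 7927 in it against 66466 to 89909. Its CH list summed to 7704 against 10992 to 17648, and its endothelial list to 4265 against 8267 to 11039. Xist, which is transcribed from the inactive X of females, was at most 2.265 in the 4 Sox1Cre controls at E13.5 and at least 3660 in the 4 controls at E12.5. Age and embryo sex cannot be told apart in these controls, whereas the Sox1Cre mutants of either age had 2 libraries with high Xist and 2 with fewer than 5 normalized counts.

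Compared per length, the 10 receptors spanned more than 100-fold. Over all libraries Fzd1 had a mean level of 1144 normalized counts per kilobase of exon, Fzd9 913, Fzd2 656.2, Fzd3 409.1 and Fzd7 354.3. Fzd10 followed with 291.6 and Fzd6 with 149.1. These 7 lay above the median level of the tested genes, which was 105.8, and Fzd4 (64.74), Fzd8 (61.3) and Fzd5 (7.847) lay below it. In the Sox1Cre controls at E13.5, Fzd1 held 31% ± 0.581 (SD, n = 4) of the summed level of the family, Fzd9 25% ± 2.08 and Fzd2 15.3% ± 2.41, so that 3 receptors made up most of the family's RNA. The ranges of neighbors in this order did not overlap, except those of Fzd7 with Fzd10, Fzd10 with Fzd6 and Fzd4 with Fzd8.

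The order was much the same in the other control groups. Fzd1, Fzd9 and Fzd2 led in all 3, and Fzd5 was last. In the NestinCre controls at E13.5 Fzd3 overlapped Fzd7, and Fzd8, at 68.41 ± 9.967 normalized counts per kilobase (SD, n = 4), took the place above Fzd4, at 64.2 ± 2.314, with overlapping ranges. In the Sox1Cre controls at E12.5 Fzd10 came next, at 496.6 ± 103.5, beside Fzd3, at 482.8 ± 16.32, whose range it overlapped. Fzd9 (792 ± 41.17) and Fzd2 (691 ± 55.06) overlapped at that age as well.

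**Figure D1:**
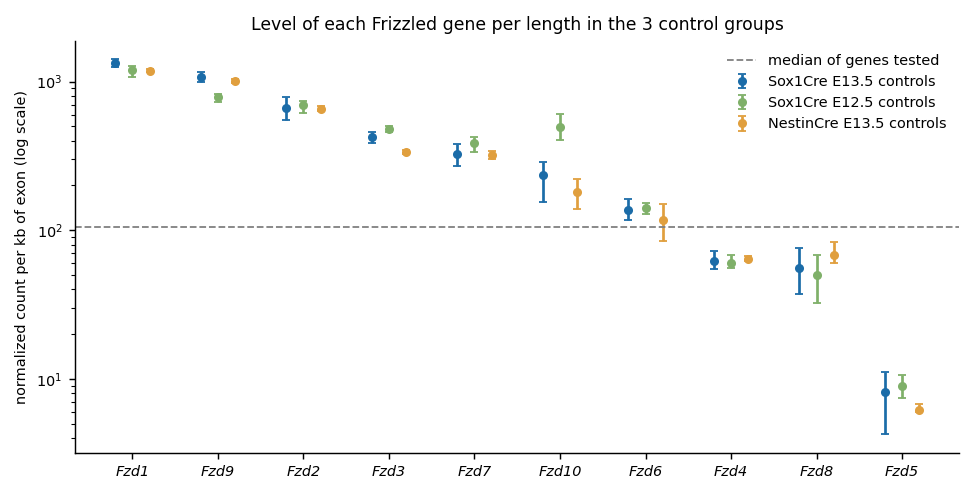
Mean normalized count per kilobase of exon (log scale) of each Frizzled gene in the Sox1Cre controls at E13.5 and E12.5 and the NestinCre controls at E13.5, with bars from the lowest to the highest of 4 libraries; the dashed line is the median of the genes tested (105.8). Fzd1, Fzd9 and Fzd2 lead in each group, Fzd5 is lowest, and Fzd10 is higher at E12.5 (496.6) than in the Sox1Cre controls at E13.5 (236.2).

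Summed over the 10 genes, the level per kilobase was 4327 ± 190.7 (SD, n = 4) in Sox1Cre controls and 3737 ± 69.99 in Sox1Cre mutants at E13.5. The lowest control had 4050 and the highest mutant 3836, so these groups did not overlap. Fzd1, the largest term of the sum, had a mean level of 1342 per kilobase in these controls and 1047 in the mutants. The highest NestinCre control, at 3988, was also below the lowest Sox1Cre control. These sums are given as a description, with no share of other lists beside them. At E12.5 the sums were 4303 ± 181.7 and 4019 ± 218.2, and in the NestinCre line they were 3937 ± 36.35 and 3983 ± 249.6, with overlapping ranges in both.

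Coding sequences, read from the GENCODE M21 transcripts, placed the members in pairs. Fzd1 and Fzd2 had 82% identical aligned bases, Fzd5 and Fzd8 76.1%, Fzd9 and Fzd10 70.9%, and Fzd3 and Fzd6 63.6%. Fzd7 was closest to Fzd1 (78.6%), and Fzd4 was equally close to Fzd1 and Fzd10 (66.5% each). No transcript of a member shared a stretch of 50 bases with a transcript of another, so that a read of that length that matches one of them exactly matches no other member.

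After Sox9 deletion none of the 10 Frizzled genes passed the threshold of 0.05 in any of the 3 comparisons of mutants with controls (limma, adjusted over all genes tested). At an unadjusted p under 0.05 there were 3 of 10 in Sox1Cre at E13.5 (Fzd1, Fzd2 and Fzd3), 3 in Sox1Cre at E12.5 (Fzd1, Fzd6 and Fzd9) and 1 in NestinCre (Fzd3), where 11.7%, 13.47% and 6.47% of all tested genes had such a p. The share of all tested genes past the adjusted threshold was 0.924%, 0.723% and 0.0669%, a share of which 10 genes hold less than 1. By edgeR the count of Frizzled genes was also 0 in all 3, and by DESeq2 it was 1, 1 and 0, the gene being Fzd1 both times (adjusted p = 0.00749 at E13.5 and 0.0278 at E12.5), where DESeq2 called 2.18% and 1.96% of the genes to which it gave an adjusted p. The median log2 fold change of the 10 genes was -0.19, 0.04 and 0.06 in these comparisons, against -0.005, 0.002 and -0.002 for all genes tested.

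**Figure D2:**
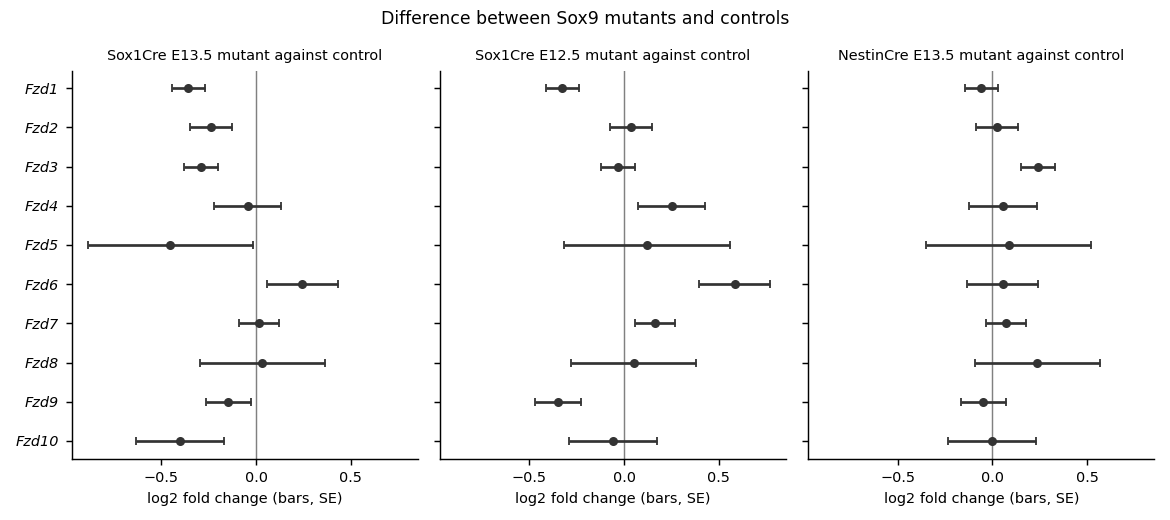
Log2 fold change of each Frizzled gene between Sox9 mutants and controls in the 3 comparisons (points, limma estimate on log2(value + 1); bars, SE; 4 libraries per group). Fzd1 is at -0.36 and -0.33 in the Sox1Cre comparisons and at -0.06 in NestinCre, and Fzd3 is at -0.29 in Sox1Cre and 0.24 in NestinCre at E13.5.

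Fzd1 (ENSMUSG00000044674) is a receptor for canonical Wnt ligands and the most abundant member here per kilobase of exon. It is a gene of 1 exon on the minus strand of chromosome 5 (chr5:4753839-4758035, GRCm38). It had 5712, 5657, 5910 and 5246 normalized counts in the Sox1Cre controls at E13.5 and 4441, 4070, 4347 and 4723 in the mutants. Every mutant lay below every control, as was so, in either direction, for 5.06% of the tested genes, and Fzd1 was the only one of the 10 Frizzled genes whose groups did not overlap there. In NestinCre none of the 10 had groups without overlap, against 4.98% of the tested genes. The log2 fold change was -0.36 (SE 0.0866), with a limma adjusted p of 0.0505, and the exact permutation test gave a two-sided p of 0.0286, the smallest that 4 against 4 allows.

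At E12.5 Fzd1 had 5307, 4477, 5267 and 4986 in controls and 3764, 4732, 3864 and 3667 in mutants. All but 1 of the mutants lay below every control, the exception being A10, and the log2 fold change was -0.33 (SE 0.0866, limma adjusted p = 0.0825). In the NestinCre line the controls lay close together at 5082, 5002, 4903 and 4857, and the mutants, at 4675, 3916, 5230 and 5390, lay on both sides of them. The log2 fold change there was -0.06, with a 95% interval from -0.24 to 0.12, and it was 0.037 without A18, the lowest mutant and the library with the highest ventral markers. The difference of the change between the Cre lines was -0.30 (95% interval -0.56 to -0.04) and did not pass the threshold (limma adjusted p = 0.463).

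Single libraries decided the call for Fzd1. Without A1 its limma adjusted p in Sox1Cre at E13.5 was 0.0413, without A8 it was 0.049 (0.954% of all genes called), and without A10 its adjusted p at E12.5 was 0.0215, while the log2 fold change stayed between -0.39 and -0.32 at E13.5 whichever library was left out. Leaving out A1 raised the share of all genes called to 3.1%, and leaving out A10 lowered it to 0.571% at E12.5. Fzd1 also passed at E13.5 (adjusted p = 0.0492) when only genes with a mean of at least 100 were tested, of which 1.02% did.

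The 250 bases before and 50 after the RefSeq start of Fzd1 are printed here because Fzd1 was the member with the lowest p after Sox9 loss in both Sox1Cre comparisons, at chr5:4758167-4758466 of GRCm38.p6, minus strand, 5′ to 3′. Capitals mark the TCF and LEF core CTTTGA, found once, on the strand opposite to the one printed. The window lies upstream of the GENCODE start used above.
Fzd1: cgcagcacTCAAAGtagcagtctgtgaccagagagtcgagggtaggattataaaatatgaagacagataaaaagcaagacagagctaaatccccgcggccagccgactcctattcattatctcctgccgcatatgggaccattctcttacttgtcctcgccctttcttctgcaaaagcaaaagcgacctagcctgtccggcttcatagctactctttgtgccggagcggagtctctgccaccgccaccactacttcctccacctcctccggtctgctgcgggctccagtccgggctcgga
The letters CTTTGA were found on either strand in 16% of 32851 RefSeq promoter windows of this length, and ACAATG, a SOX core, in 12.6%. ACAATG was not found in this window. Windows were matched for 6 of the 10 members (Fzd1, Fzd4, Fzd5, Fzd7, Fzd9 and Fzd10), and CTTTGA was in that of Fzd1 only, ACAATG in none.

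Fzd2 (chr11:102604396-102608058, plus strand) and Fzd7 (chr1:59482424-59486955, plus strand) are the close relatives of Fzd1, likewise with 1 exon each. In Sox1Cre at E13.5 Fzd2 had 2897, 2714, 2088 and 2013 normalized counts in controls and 2566, 1923, 1813 and 1917 in mutants. The groups overlapped through A1, and the log2 fold change was -0.24 (limma adjusted p = 0.41) with all libraries, -0.35 (0.0667) without A1 and -0.145 (0.806) without A5. Fzd2 differed little in the other comparisons, by 0.03 at E12.5 and 0.02 in NestinCre. Fzd7 was also close to its controls, with log2 fold changes of 0.01, 0.16 and 0.07, none of which passed.

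Fzd3 and Fzd6 are the members best known for planar cell polarity and axon guidance. Fzd3 (chr14:65192449-65262463, minus strand) had 5224, 4951, 5494 and 5867 normalized counts in the Sox1Cre controls at E13.5 and 5213, 4563, 3991 and 3921 in the mutants. All mutants but A1 lay below every control, and the log2 fold change was -0.29 (SE 0.0915, limma adjusted p = 0.16). In NestinCre the controls had 4190, 4253, 4289 and 4409 and the mutants 3987, 5235, 5860 and 5361. Here all mutants but A17 lay above every control, and the log2 fold change was 0.24 (SE 0.0915, limma adjusted p = 0.614).

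The 2 changes of Fzd3 thus had opposite signs, and their difference was -0.53 (SE 0.129, 95% interval -0.80 to -0.26), with a limma adjusted p of 0.166 where 0.0425% of all genes, 7 in number, passed. By DESeq2, which called 0.596% of genes, the adjusted p of the difference was 0.0191. Without A1 it was 0.0197 (limma, 0.875% of genes called) and without A17 it was 0.0105 (0.079%). Without A1 the decrease in Sox1Cre passed by itself (-0.37, limma adjusted p = 0.0272), in a setting that called 3.1% of all genes in that comparison. No other Frizzled gene passed in the difference between Cre lines under any alternative.

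The controls of the Cre lines also differed in Fzd3. The Sox1Cre controls lay above all NestinCre controls at E13.5, by 0.33 on the log2 scale (limma adjusted p = 0.164), and the Fzd3 of the Sox1Cre mutants was, at 4422 ± 600.6 (SD, n = 4), close to that of the NestinCre controls, at 4285 ± 91.84. Fzd1 was higher in the Sox1Cre controls in the same way, by 0.18 (adjusted p = 0.494). Between control groups 0.243% of the tested genes passed the threshold, none of them a Frizzled gene by limma, edgeR or DESeq2, and 6.22% did not overlap. At an unadjusted p under 0.05, there were 2 of the 10, Fzd1 and Fzd3, and 10.04% of all tested genes. A low or high control group enters each change of its own line, and its part in the opposite signs was not tested. At E12.5 Fzd3 had 6182 ± 209 in controls and 6045 ± 198.7 in mutants, which differed by -0.03.

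Fzd6 (chr15:39006034-39038188, plus strand) was the member with the largest increase in the comparisons of mutants with controls, which did not pass the threshold. At E12.5 it had 623.1, 684.2, 694.2 and 735.7 normalized counts in controls and 1093, 1032, 802.4 and 1217 in mutants. All mutants lay above all controls, as was so in either direction for 10.3% of tested genes, and the log2 fold change was 0.58 (SE 0.188, 95% interval 0.19 to 0.98, limma adjusted p = 0.168). The exact permutation p was 0.0286, the smallest possible. At E13.5 the changes were 0.24 in Sox1Cre, where mutants spread from 511.1 in A1 to 1079 in A2, and 0.05 in NestinCre. The first of these was 0.44 without A1 and 0.082 without A2, and neither passed (limma adjusted p = 0.157 and 0.897). The CH list, in which Rspo2 was the most abundant gene, summed at E12.5 to 18727, 18851, 27466 and 30102 in controls and 24040, 27141, 22636 and 35413 in mutants. The choroid plexus list, led by Ttr, summed to 20542, 16839, 25845 and 29572 in controls and 36192, 33764, 44039 and 20659 in mutants. All mutants but A12 lay above every control in it, with none of its 6 tested genes past the threshold and a median log2 fold change of 0.46, and the part of tissue composition in the difference of Fzd6 was not tested. On the opposite strand Gm26704 shares 152 exon bases with Fzd6, with a mean of 3.03 normalized counts, and the strand setting of the counting is not given in the sources used here.

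Fzd4 (chr7:89404355-89413134, plus strand), the receptor for Norrin as well as Wnts in blood vessels, ranged from 237.3 in A1 to 545.7 in A17. No comparison of mutants passed, with log2 fold changes of -0.04 and 0.25 in Sox1Cre at E13.5 and E12.5 and 0.06 in NestinCre. In Sox1Cre at E13.5 its sign was not settled, since the value was 0.21 without A1, 0.016 with edgeR and 0.018 with DESeq2. Over the 24 libraries the genes most like Fzd4 were H19 (r = 0.92), Mylk (0.90) and Igf2 (0.90), and after subtraction of group means H19 and Adgra2 both had 0.95. The vessel partner of Fzd4, Tspan12, differed by -0.29 on the log2 scale at E12.5 (limma adjusted p = 0.106) and -0.26 in Sox1Cre at E13.5 (0.169).

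Fzd5 and Fzd8, a closely related pair that acts in early forebrain and eye, were the lowest members with Fzd4. Fzd5 (chr1:64730558-64737751, minus strand) rested on 10 to 96 reads per library, the fewest of any member. The spread was wide in some groups, from 9.127 to 64.5 normalized counts in the Sox1Cre mutants at E13.5 and from 29.44 to 76.86 in their controls. It was narrow in the NestinCre controls, from 41.17 to 46.89. None of its differences passed, and the SE was 0.437 for each difference between 2 groups, so a small change would have been hard to see. On the opposite strand Gm38058 shares 1233 exon bases with Fzd5, with a mean of 0.0257 normalized counts.

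Fzd8 (chr18:9212163-9218136, plus strand) split within the Sox1Cre control groups. In the Sox1Cre controls at E13.5 it had 451.9 and 431.6 normalized counts in A5 and A6 and 223.7 and 230.6 in A7 and A8. At E12.5 it had 404.2 and 391 in A13 and A14 and 214.3 and 193 in A15 and A16. A1 had 655.3 against 229.6 to 304.4 in the other 3 libraries of its group. The Sox1Cre mutants at E12.5 (A9 to A12) were graded, with 240.4, 461.5, 328.3 and 206.5. The NestinCre libraries, at 360.7 to 618.5, held no such pair of levels, and the log2 fold changes were 0.03, 0.05 and 0.24 with an SE of 0.329 each.

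Fzd8 ran against most of the other low members within the groups. After subtraction of group means its Pearson r was 0.78 with Fzd2, -0.62 with Fzd10, -0.67 with Fzd6 and -0.62 with Fzd5. Fzd4 and Fzd5 ran together (0.73). All genes of a library share its dissection and depth, so the values are given as a description.

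**Figure D3:**
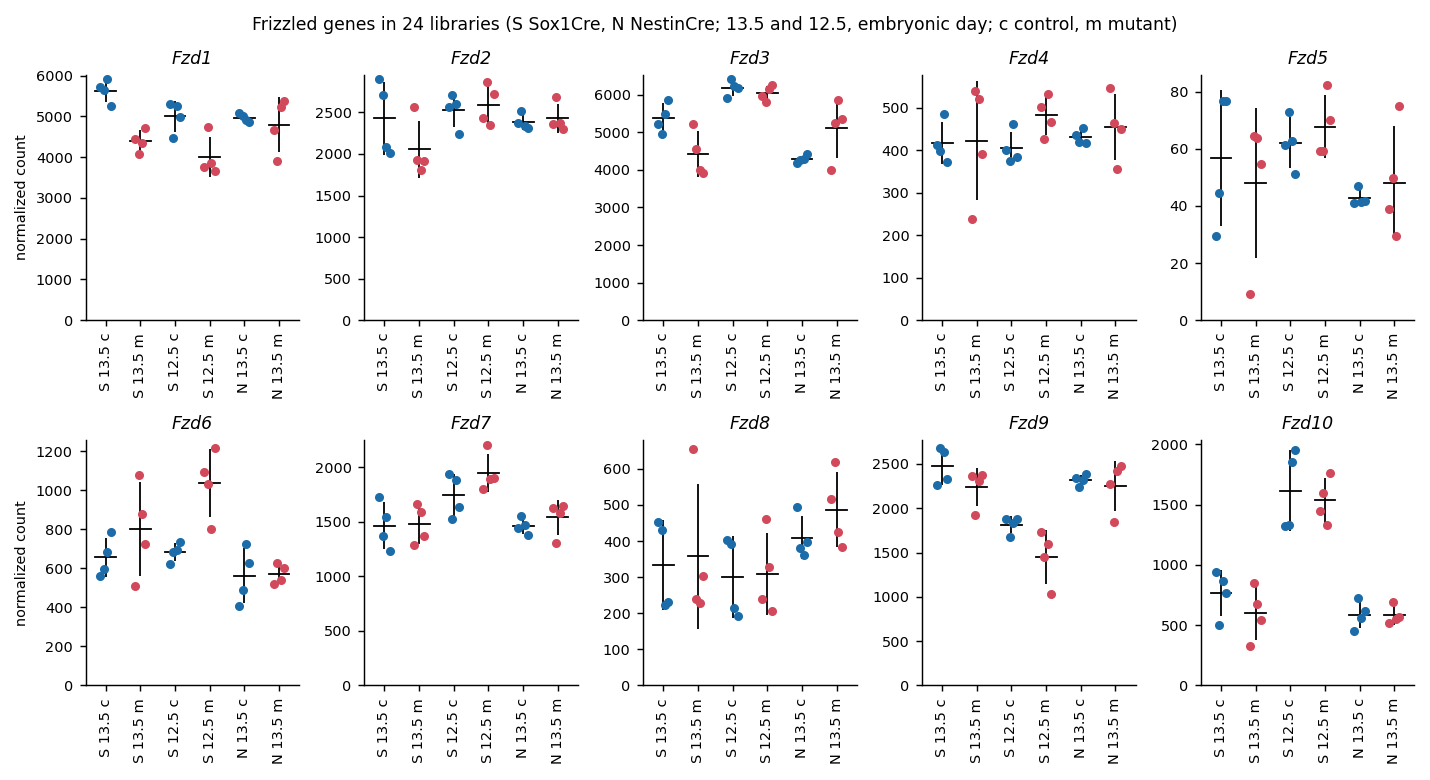
Normalized count of each Frizzled gene in every library (points), with the mean (line) and SD (bar) of the 4 libraries of each group; blue points are controls and red points mutants, and the vertical axes are linear and start at 0. Fzd1 mutants lie below their Sox1Cre controls at E13.5, Fzd8 splits into pairs within the Sox1Cre controls, and Fzd10 is highest in both E12.5 groups.

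Fzd9 and Fzd10, the pair related by sequence, moved in opposite directions between E12.5 and E13.5. Fzd10 (chr5:128600844-128604093, plus strand), a canonical Wnt receptor, had 1323, 1327, 1851 and 1955 normalized counts in the Sox1Cre controls at E12.5 and 942.2, 500.2, 864.9 and 763.5 at E13.5. Every E13.5 library lay below every E12.5 library. The mean at E13.5 was 0.476 times that at E12.5, and the log2 fold change was -1.09 (SE 0.232, limma adjusted p = 0.00623). Of the tested genes, 11.5% passed in this comparison and 18% did not overlap, and of the 10 Frizzled genes 2 passed, Fzd9 and Fzd10, and 3 did not overlap, these and Fzd3.

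The mutants gave the same order. Fzd10 had 1450, 1599, 1329 and 1763 in the Sox1Cre mutants at E12.5 and 326.7, 852.5, 678 and 542.3 at E13.5, a change of -1.43 on the log2 scale (limma adjusted p = 0.00034). Between mutants of the 2 ages 25.9% of all genes passed and 23.1% did not overlap, with 5 and 4 of the Frizzled genes. The change with age did not differ detectably between controls and mutants for any of the 10. In that test of the difference 0% of all tested genes passed by limma, where 1217 had an unadjusted p under 0.05, and edgeR called 0 and DESeq2 20.

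Sox9 deletion left Fzd10 with log2 fold changes of -0.40 in Sox1Cre at E13.5 (limma adjusted p = 0.536), -0.06 at E12.5 (0.939) and -0.003 in NestinCre (adjusted p = 1). The first of these was -0.14 without A1, the library with the lowest CH sum.

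Fzd9 (chr5:135248938-135251230, minus strand), a 1-exon gene for a receptor known from the developing hippocampus, rose instead. It had 1878, 1677, 1836 and 1873 normalized counts in controls at E12.5 and 2260, 2677, 2639 and 2335 at E13.5. All E13.5 libraries were higher, and the log2 fold change was 0.45 (SE 0.119, limma adjusted p = 0.0196). In mutants it went from 1737, 1448, 1592 and 1027 to 2368, 1920, 2305 and 2374, a change of 0.65 on the log2 scale (limma adjusted p = 0.000772), again without overlap. After deletion Fzd9 had log2 fold changes of -0.15 in Sox1Cre at E13.5 (limma adjusted p = 0.698), -0.35 at E12.5 (0.196) and -0.049 in NestinCre (adjusted p = 1). The first of these was -0.073 without A2. The lowest mutant, A12, had the highest CH sum of all 24 libraries, 35413, and without it the log2 fold change at E12.5 was -0.19 (adjusted p = 0.505).

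With age, 3 more Frizzled genes fell in the mutants. Fzd3 fell by 0.46 on the log2 scale (limma adjusted p = 0.00138), Fzd7 by 0.40 (0.00789) and Fzd2 by 0.35 (0.0264). In controls the same genes had log2 fold changes of -0.20 (adjusted p = 0.161), -0.26 (0.121) and -0.08 (0.719). Only the groups of Fzd2 overlapped among the 3 in mutants, and its call was lost when 1 of 5 libraries was left out (A2, A3, A4, A10 or A12) and when only the 8 libraries of the comparison were fitted (adjusted p = 0.0823). Fzd6 had a log2 fold change of -0.41 in mutants (adjusted p = 0.113), and passed without A2 (-0.57, adjusted p = 0.0249), when 28.7% of all genes did. Without A1 its change was -0.21 and did not pass.

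Because Xist separated the ages in controls, the fit was repeated with Xist as a covariate. In controls 0% of all tested genes then passed, where 2460 had an unadjusted p under 0.05, and the log2 fold changes were -0.83 for Fzd10 (limma adjusted p = 0.185) and 0.41 for Fzd9 (0.21). In mutants, where both ages held libraries with and without Xist, they were -1.43 (0.000314) and 0.65 (0.00094). The part of sex in the controls cannot be told apart from age. Since the mutants of either age held 2 libraries with Xist and 2 without, the covariate could move their changes little, and these values do not test the part of sex. Xist was also unbalanced between Sox1Cre mutants and controls, since the controls of each age were all low or all high. With the covariate 102 genes passed there at E13.5 (152 without it) and 88 at E12.5 (119 without it), none a Frizzled gene. The part of sex in those comparisons was not tested. The call for Fzd9 in controls was also lost without A6 (0.0713), A7 (0.0535) or A14 (0.0603), and without A5 Fzd7 passed as well (-0.34, adjusted p = 0.0344), when 16% of all genes did.

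The windows around the RefSeq starts of Fzd9 and Fzd10 are printed because only these members passed between ages in both controls and mutants (limma, all libraries). They lie at chr5:135250998-135251297 (minus strand) and chr5:128600856-128601155 (plus strand) of GRCm38.p6 and are given 5′ to 3′. The window of Fzd10 lies inside the GENCODE gene, and that of Fzd9 spans the GENCODE start with most of its bases inside. Neither holds CTTTGA or ACAATG on either strand, so no letter is in capitals, and both are rich in G and C, at 78% and 77.7% against 54% in the window of Fzd1.
Fzd9: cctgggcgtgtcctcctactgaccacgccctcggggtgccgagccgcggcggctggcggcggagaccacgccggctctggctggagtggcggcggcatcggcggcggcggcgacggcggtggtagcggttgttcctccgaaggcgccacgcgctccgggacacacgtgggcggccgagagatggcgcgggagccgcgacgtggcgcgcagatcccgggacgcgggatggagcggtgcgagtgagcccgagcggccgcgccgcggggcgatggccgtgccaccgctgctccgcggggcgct
Fzd10: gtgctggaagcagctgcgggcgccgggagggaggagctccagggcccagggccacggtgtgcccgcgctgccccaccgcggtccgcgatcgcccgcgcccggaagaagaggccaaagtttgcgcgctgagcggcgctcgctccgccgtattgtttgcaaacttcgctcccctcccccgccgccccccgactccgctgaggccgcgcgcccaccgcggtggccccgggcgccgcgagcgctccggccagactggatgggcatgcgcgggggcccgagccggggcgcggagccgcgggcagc

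The genes whose pattern over the 24 libraries was most like that of Fzd10 were Wls, which carries Wnt proteins to the cell surface (Pearson r = 0.97), Rspo2, an R-spondin of the hem (0.97), and Wnt3a, the ligand that marks the CH (0.97). After subtraction of group means the values were 0.93, 0.95 and 0.92, so the likeness was also seen among libraries of a group. By that measure Klhdc8b (0.96), Rspo2 (0.95) and Id3 (0.946) were the most alike, ahead of Wls and Wnt3a. Wnt3a had 1642, 1800, 2209 and 2516 normalized counts in controls at E12.5 and 1242, 803.9, 1268 and 1285 at E13.5, and the library with the lowest Fzd10 of its group, A6, also had the lowest Wnt3a. In bulk tissue fewer cells of a type and less RNA per cell cannot be told apart. For Fzd9 the most alike genes were Aldoc, a glycolytic enzyme of astrocytes and their progenitors (0.97), Slitrk2 (0.96) and Rnf217 (0.95). The genes of a library share its dissection and age, and no p is given.

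**Figure D4:**
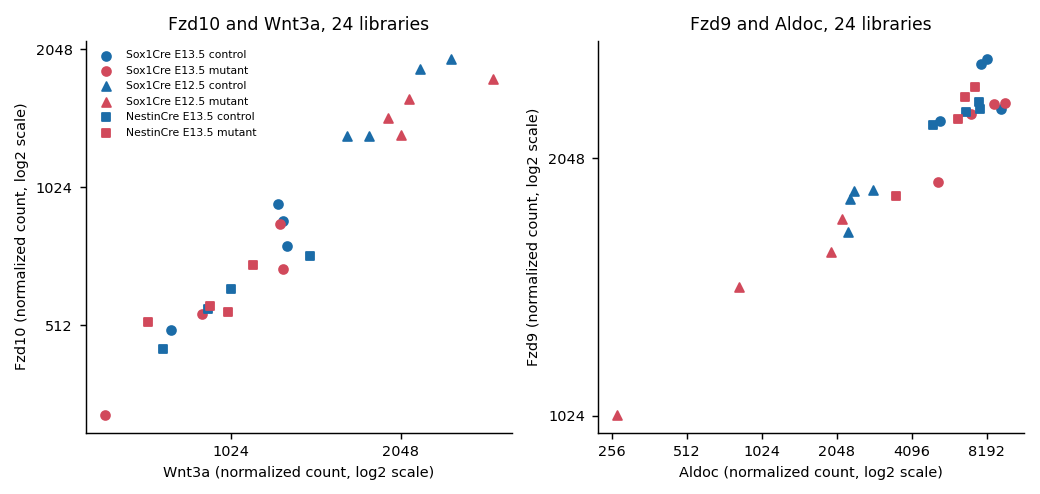
Fzd10 against Wnt3a (left) and Fzd9 against Aldoc (right) in the 24 libraries, normalized counts on log2 axes; color separates controls from mutants and symbol the line and age. The points run along a rising line in both plots (r = 0.97 each), with the E12.5 libraries at the Fzd10-high and Fzd9-low ends.

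The CH list as a whole was lower at E13.5. Its sum per library was 18727 to 30102 in controls at E12.5 and 9364 to 15905 at E13.5, and 4 of its 6 tested genes fell in controls (Wnt3a, Rspo2, Rspo3 and Bmp4), none rising, where 11.5% of all tested genes passed in either direction. Neuronal markers moved the other way, with 4 of 5 higher, such as Neurod6 by 2.97 on the log2 scale (limma adjusted p = 0.00261) and Dcx by 1.10 (0.00984). Blood markers fell, 6 of 6, with Hbb-y going from 84130 to 36040 normalized counts on average. The choroid plexus list was higher at E13.5, with sums of 29679 to 67890 against 16839 to 29572, though none of its 6 tested genes passed, and their median log2 fold change was 0.80. The part of these tissue shares in the change of Fzd9 and Fzd10 was not tested.

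**Figure D5:**
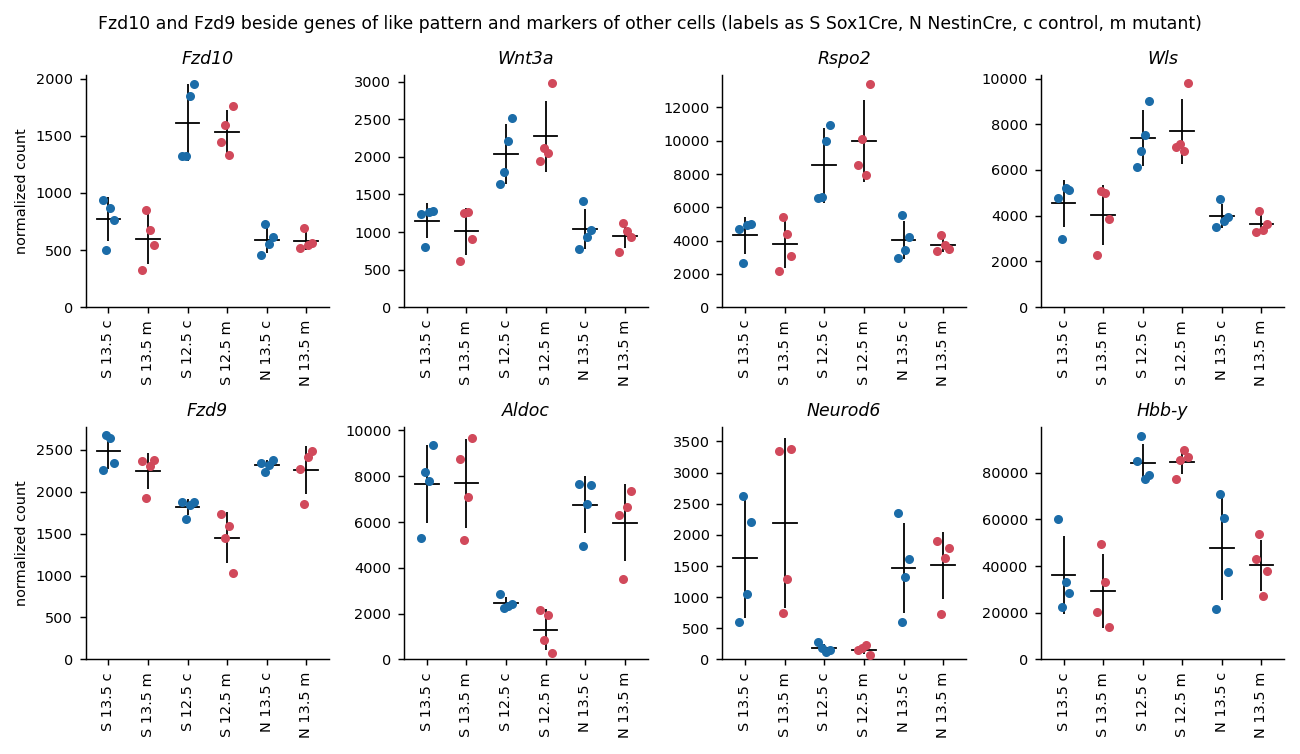
Normalized counts in every library (points; line, mean; bar, SD of 4) of Fzd10, Fzd9 and of genes of like pattern (Wnt3a, Rspo2, Wls, Aldoc) or markers of neurons (Neurod6) and embryonic blood (Hbb-y); axes are linear and start at 0. Fzd10, Wnt3a, Rspo2, Wls and Hbb-y have higher means in the Sox1Cre groups at E12.5 than at E13.5, and Fzd9, Aldoc and Neurod6 have lower ones.

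The rest of the pathway was described by lists of 77 genes, of which 68 passed the filter. After deletion 1 of the 68 fell and none rose in Sox1Cre at E13.5, and none passed at E12.5 or in NestinCre (limma). In the same order 0.924%, 0.723% and 0.0669% of all tested genes passed. At an unadjusted p under 0.05 the counts were 8, 6 and 3 of the 68, beside the shares of 11.7%, 13.47% and 6.47% over all tested genes. The gene that fell was Wnt7b, a ligand of radial progenitors and neurons, with 5118, 4183, 4406 and 4162 normalized counts in controls and 2724, 3022, 2952 and 2733 in mutants. The mutants were lower throughout, with a log2 fold change of -0.64 (SE 0.131, limma adjusted p = 0.0154), and in NestinCre it was -0.36 (adjusted p = 0.581).

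Among ligands, 13 of 19 were tested, and Wnt8b was the most abundant per length, at 2131 normalized counts per kilobase over all libraries. Among co-receptors and other receptors all 10 were tested and none passed after deletion. Lrp6, the co-receptor, had a log2 fold change of -0.11 in Sox1Cre at E13.5 (limma adjusted p = 0.378), and Smo, the Frizzled-like transducer of Hedgehog signals, had -0.15 there (0.34) and 0.14 in NestinCre (0.72). Of the 9 genes for R-spondins, their receptors and the ligases that remove Frizzled, none passed. Rnf43, one of those ligases, was at -0.43, -0.35 and -0.36 in Sox1Cre at E13.5, Sox1Cre at E12.5 and NestinCre, with adjusted p of 0.278, 0.365 and 0.736. Among the 11 TCF and LEF factors and feedback targets, Axin2 had 4411 ± 528.8 in controls and 4905 ± 1334 in mutants at E13.5 (SD, n = 4), and Sp5 had a log2 fold change of -0.64 (adjusted p = 0.171). Of the 11 tested secreted inhibitors, 10 Dishevelled and destruction complex genes and 9 planar polarity partners, none passed after deletion.

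With age in controls 10 of the 68 pathway genes fell and 5 rose, and in mutants 24 fell and 8 rose, where all tested genes were split into 851 lower and 1041 higher in controls and 1992 lower and 2271 higher in mutants. Beside Fzd10 the ligands Wnt8b (-1.10, limma adjusted p = 0.00798) and Wnt3a (-0.83, 0.0211) fell in controls, as did Rspo1 (-1.02, 0.0183), Rspo2 (-0.99, 0.0202) and Rspo3 (-0.76, 0.0376). The feedback targets Axin2 (-0.62, 0.0227) and Sp5 (-0.74, 0.024) fell too. Beside Fzd9, genes that rose were Wnt7a (1.197, 0.0254), Celsr3, a planar polarity partner (0.88, 0.00801), and Dact1, a Dishevelled binding protein (1.04, 0.00758). With Xist as a covariate none of these calls in controls could be kept, since 0% of genes passed.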

How the data were processed

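The submitters' processing notes and the study's methods name Trimmomatic 0.36, STAR 2.5.2a, RSEM 1.2.31, GRCm38 and DESeq2. Libraries were made with the KAPA mRNA HyperPrep kit and sequenced on an Illumina HiSeq instrument, and the strand setting of the counting is not given in the sources used here. The deposited signal per gene, made by the authors, is a count of whole reads estimated by RSEM and scaled by the size factor of its library. It is on a linear scale, and no libraries were pooled. In every library 100% of values were whole multiples of the value of 1 read (tolerance 0.02 reads), so the reads were recovered for the depths and the count models. In A3 a read is worth 0.994 units, which leaves little room to check this step.

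Values were tested on log2(value + 1) with limma 3.58.1 (R 4.3.3), 1 mean per group over the 24 libraries, eBayes with trend and 18 residual degrees of freedom. Intervals of 95% used the SE of this fit with 18 degrees of freedom, fewer than its p-values used, so they are slightly wide. A gene was kept if 4 or more libraries reached a value of 10, and p-values were two-sided and Benjamini-Hochberg adjusted over the 16454 genes tested, with a threshold of 0.05. A fold change on this scale understates the change of low genes. For single genes, exact permutation p-values (two-sided) came from the 35 ways to divide 8 libraries evenly and could not go below 0.0286. Alternatives were pseudocounts of 0.5 and 5, no filter, a mean of at least 100, only the libraries of the comparison, quantile normalization, Xist as a covariate, edgeR 4.0.16, DESeq2 1.42.0 and leaving out each library. The test between control groups was added after values had been seen. The fits were tested on simulated data.

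Genes were matched by Ensembl ID to names, with 51633 of 51912 named. Levels per length used the exon bases of GENCODE M21, likeness was the Pearson r of log2(value + 1) over 24 libraries among 11830 genes with a mean of at least 100, and promoters came from RefSeq (GRCm38.p6). No 2 libraries of a group were copies of each other, by a chi-square test of their reads. Named genes were the members, Sox9, Xist, list genes past the threshold or among the most abundant of their list or the lowest p-values, and the 3 most alike genes of each member. Gm26704 and Gm38058 were named for their overlap with members. The members and lists were chosen with earlier results of these data known, and lists support nothing by their choice. Read numbers cover counting error only, because without molecular identifiers a read is not a separate molecule.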

Additional observations from a re-analysis of the deposited data

Results flagged for a closer look

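Each Frizzled gene and Sox9 was looked at in each group of 4 libraries, 66 groups in all, for a library whose gap to the nearest of the others took most of the range of its group, a criterion that chance meets in about 1 in 20 groups. It was met in 3 of 66. Fzd2 was 2566 normalized counts in A1, a Sox1Cre mutant at E13.5, against 1813 to 1923 in the other 3 libraries. Fzd9 was 1920 in A2, of the same group, against 2305 to 2374. Fzd5 was 46.89 in A22, a NestinCre control, against 41.17 to 41.57, a gap that a few reads of this low gene make up. A1 was also the library of that group with the fewest normalized counts of Ttr, as described above, and the part of its tissue makeup in its Fzd2 value was not tested.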

How the results depend on the processing

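Of 845 values of the members under alternatives in the 3 comparisons of mutants with controls and the 2 of ages, 776 kept their direction and their side of the threshold, 11 lost and 9 gained the threshold, and 49 changed sign, none of which passed under either setting; the cause was not tested. The difference between Cre lines was not among these values, and Fzd3 gained the threshold there with DESeq2, without A1 and without A17. Fzd4 in Sox1Cre at E13.5 became 0.016 with edgeR and 0.018 with DESeq2. With Xist as a covariate Fzd7 in that comparison became -0.030, Fzd4, Fzd5 and Fzd6 in NestinCre -0.004, -0.084 and -0.024, Fzd10 at E12.5 0.064, and Fzd5 and Fzd6 between ages in controls 0.38 and 0.21. Quantile normalization turned Fzd8 in Sox1Cre at E13.5 to -0.001, Fzd10 in NestinCre to 0.01 and Fzd3 at E12.5 to 0.01.
Leaving out 1 library also moved signs. In Sox1Cre at E13.5 the lowest and highest log2 fold changes were -0.18 and 0.21 for Fzd4, -0.73 and 0.20 for Fzd5, -0.067 and 0.10 for Fzd7 and -0.30 and 0.20 for Fzd8, and at E12.5 -0.022 and 0.082 for Fzd2, -0.17 and 0.22 for Fzd8 and -0.14 and 0.043 for Fzd10. In NestinCre they were -0.12 and 0.037 for Fzd1, -0.024 and 0.052 for Fzd2, -0.037 and 0.17 for Fzd4, -0.15 and 0.29 for Fzd5, -0.087 and 0.19 for Fzd6, -0.10 and 0.043 for Fzd9 and -0.12 and 0.10 for Fzd10. Between ages in controls they were -0.17 and 0.009 for Fzd2, -0.038 and 0.10 for Fzd4, -0.40 and 0.057 for Fzd5 and -0.031 and 0.32 for Fzd8, and in mutants -0.20 and 0.35 for Fzd8.

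The number of Frizzled genes past the threshold was 0 in Sox1Cre at E13.5 and became 1 with DESeq2, 1 with a mean of at least 100 and 0 to 2 without 1 library. At E12.5 it was 0, 1 with DESeq2 and 0 to 1 without 1 library, as in the difference between Cre lines. Between ages in controls it was 2, 0 with Xist as a covariate and 1 to 3 without 1 library, and in mutants it was 5, and 4 to 5 without 1 library. With the longest transcript 56 of 60 ranks by level per length were kept, Fzd10 changing places with Fzd6 in the Sox1Cre mutants at E13.5 and with Fzd3 in those at E12.5, and 13 of 30 most alike genes remained with Spearman's rho. Over all genes the calls in Sox1Cre at E13.5 went from 152 to 44 with the libraries of the comparison only, 358 with DESeq2, 510 without A1, 90 without A3 and 95 without A6. At E12.5 they went from 119 to 76 and 298 with the comparison's libraries only and with DESeq2, and to 50 without A13, the fewest without 1 library, and in NestinCre from 11 to 5 with edgeR, with no filter or with a mean of at least 100, 2 with Xist as a covariate and 37 with DESeq2, and 2 to 7 without 1 library. The difference between Cre lines went from 7 to 13 with its libraries only, 98 with DESeq2 and 144 without A1. The comparison of ages went from 1892 to 794 without A6 in controls, the fewest without 1 library, and from 4263 to 2133 with its libraries only in mutants, and that between control groups from 40 to 22 with a mean of at least 100, 152 with DESeq2 and 11 without A23. No scaling moved the median of all genes by more than 0.1 on the log2 scale. No paired analysis was possible because the groups share no replicate numbers. Fzd5 had the fewest reads of the members, with 10 to 96 per library.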

Other observations

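Over the 24 libraries the genes most like the other members were outside the Wnt pathway lists used here. For Fzd2 these were Pimreg (Pearson r = 0.90), Ccnf (0.90) and Gm10275 (0.89) over 24 libraries, and after subtraction of group means Ccnf (0.92), Mis18a (0.92) and Mcm3 (0.92). Ccnf, Mis18a and Mcm3 encode proteins of the cell cycle, of centromere loading and of DNA replication. For Fzd1 they were Itpripl1 (0.84), Ubl3 (0.82) and Slc2a13 (0.82), and after subtraction of group means these had 0.61, 0.77 and 0.42. Slc2a13, a myo-inositol transporter, itself fell after Sox9 deletion in Sox1Cre, by 0.51 on the log2 scale at E13.5 (limma adjusted p = 0.00306) and by 0.44 at E12.5 (0.0124). For Fzd3 they were Wnk3 (0.90), Zfp799 (0.90) and Fem1b (0.89), for Fzd7 Tmem138 (0.85), Pidd1 (0.84) and Zkscan7 (0.84), and for Fzd8 Mn1 (0.84), Prmt7 (0.84) and Prmt5 (0.84). For Fzd5 they were Gprc5c (0.90), Cpq (0.88) and Acss3 (0.87), and for Fzd6 Sgk1 (0.83), Slc14a2 (0.82) and Capn2 (0.82). By Spearman's rho 13 of the 30 most alike genes remained among the first 3 of their member.

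The members also ran with and against each other over the 24 libraries. Fzd9 and Fzd10 had r = -0.76 over all libraries and -0.45 after subtraction of group means. Fzd7 and Fzd10 had 0.73 and 0.41, and Fzd1 and Fzd9 had 0.66 and 0.53. Genes measured in the same library share its dissection, age and depth, and no test was made of these values.

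Radial progenitor markers, with Vim the most abundant, summed to 53657 to 61440 normalized counts in the Sox1Cre mutants at E13.5 and 59227 to 65308 in their controls. Vim, an intermediate filament of radial glia, fell by 0.26 on the log2 scale (limma adjusted p = 0.0289), and Ebf3, a factor of Cajal-Retzius cells, fell by 0.33 (0.0352). They were 1 of 6 radial progenitor genes and 1 of 5 Cajal-Retzius genes tested, and no other gene of these lists passed there. Of all tested genes 0.924% passed in this comparison. The median log2 fold change of the 6 radial progenitor genes was 0.064, opposite in sign to that of Vim, and Nes was at 0.15 (limma adjusted p = 0.65). The median of the 5 Cajal-Retzius genes was -0.013, and their sums overlapped, at 9239 to 14750 in controls and 10179 to 15713 in mutants. The part of these cells in the values of Fzd1 was not tested.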
